A study of Danio rerio with 18 samples.

Results

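Normal development of the zebrafish (Danio rerio) from late gastrulation to segmentation was described by comparing 3 control libraries collected at 12 somites with 3 control libraries collected at 80% epiboly, 6 of the 18 libraries of the study. The libraries were chosen by stage and treatment alone. RNA was sequenced from whole wild-type embryos kept at 28°C, and every control embryo had been given DMSO, the solvent used for retinoic acid in the rest of the study. The 80% epiboly controls received DMSO from 30% epiboly, and the 12 somites controls received it from 80% epiboly. Stage, onset of DMSO and length of exposure therefore cannot be told apart. The controls at 24 hpf, described for later levels, also received it from 80% epiboly. From 12 somites to 24 hpf, stage and length of exposure cannot be told apart either. The labels do not say how many embryos made up a library or whether replicates came from separate clutches, and no preparation batch is given, so the p-values measure the spread between these libraries.

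At 80% epiboly the blastoderm has spread over most of the yolk and the germ layers are being laid down. By 12 somites the body axis carries muscle-forming segments, and the brain, eyes and neural crest are taking shape. Embryos of this species begin with RNA supplied by the mother, which is progressively cleared while transcription of the embryo's own genome takes over. A stage comparison of whole embryos therefore combines genes that start, genes that stop and stores that run down. Fewer cells of a type and less RNA per cell cannot be told apart in such libraries.

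The deposited counts are listed by Ensembl transcript ID, and 0 of 58549 IDs were paired with a gene in the tables used here. The transcripts are therefore described by their levels and by their behaviour over the stages, and no gene, cell type or pathway is named. The labelled tissue could not be checked against marker genes for the same reason. Several transcripts can belong to 1 gene, so they do not vary independently.

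Transcript counts per library ran from 95326249 to 115511468 at 80% epiboly and from 87637013 to 88004323 at 12 somites, so that the gastrula libraries were the deeper ones. Reads outside annotated features came to 3.1 to 3.28% at 80% epiboly and 3.96 to 4.13% at 12 somites, without overlap. The total used is described with the processing and is not a number of distinct reads. The part of these reads in the results was not tested. Replicates of a stage differed by more than counting noise, with a chi-square per degree of freedom of 5.25 to 14.2, and each was counted as 1 sample. The common biological coefficient of variation was 0.0833 at 80% epiboly and 0.0521 at 12 somites. The first principal component held 97.9% of the variance and separated the stages.

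Levels are given in CPM, counts scaled to a common library size, with each library corrected by its TMM factor. CPM are not divided by transcript length, so a long transcript has a higher CPM than a short one present in the same number of molecules. They are relative to the library, since the amount of RNA per embryo was not measured. A transcript is called clear at a stage when every library of that stage stood at 1 CPM or more, low when every library stood under 0.1 CPM (8.61 to 10.2 counts, depending on the library), and between otherwise. A transcript was called changed at an adjusted p under 0.05 in edgeR's quasi-likelihood test over all transcripts tested.

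Of 41505 transcripts tested, 84.2% were called, 44.3% higher and 39.9% lower at 12 somites. With so large a background, a call alone separates few transcripts, and the description turns on size and on presence. A rise of at least 4-fold was found in 7042 called transcripts and a fall of that size in 2466. At 16-fold or more the counts were 2746 and 312, so the largest changes were mostly rises. Fitted folds of transcripts near 0 at 1 stage depend on the small count added in the fit, and the next comparisons therefore use levels.

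**Figure D1:**
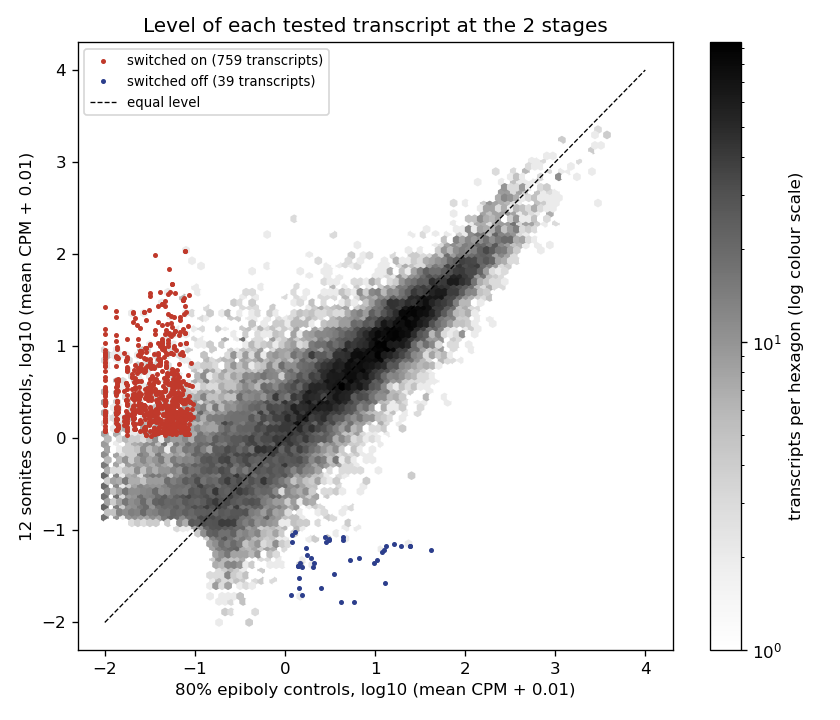
Each hexagon counts tested transcripts by the log10 of mean CPM plus 0.01 at 80% epiboly (x axis) and at 12 somites (y axis), n = 3 libraries per stage. Red points mark the 759 transcripts that were switched on and blue points the 39 that were switched off. The dashed line marks equal level, and 19718 of the 41505 tested transcripts were called with a change of at least 2-fold.

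Most tested transcripts were clear at each stage, a majority set in part by the filter on low counts. Among all 58549 IDs a clear level was not the majority at either stage. A clear level was held by 25604 transcripts at 80% epiboly and by 28657 at 12 somites, and 23904 were clear at both. Clear only at 12 somites were 4753, against 1700 clear only at 80% epiboly. Transcripts low at both stages do not appear here, because 17044 IDs were removed by the filter on low counts, 4881 of them without a single count in the 6 libraries. Transcripts low at 1 stage tended to pass that filter through the other stage, which favoured a difference, so their calls carry no weight of their own.

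Passage out of the low level was the commoner direction. From low at 80% epiboly, 759 transcripts stood at the clear level at 12 somites and 2430 in the range between, 19 of the latter not called. In the reverse direction, 39 fell from clear to low and 727 from between to low. A further 3994 were between at 80% epiboly and clear at 12 somites, 3860 of them called higher and 134 not called. Clear and then between were 1661, of which 1605 were called lower and 56 were not called. In the range between at both stages stood 7991 transcripts, of which 2959 were called higher and 2188 lower.

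**Figure D2:**
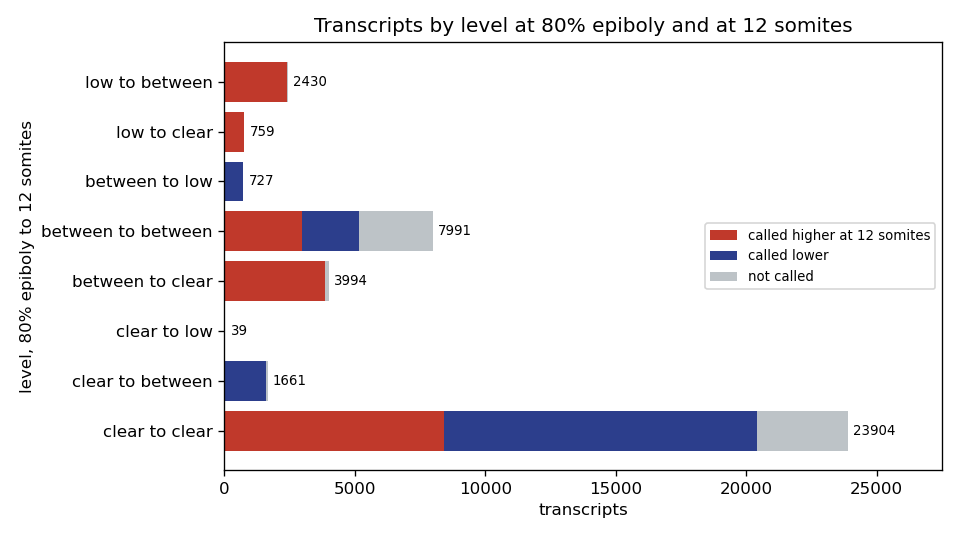
Bars count transcripts by level at 80% epiboly and at 12 somites (low, under 0.1 CPM in all 3 libraries; clear, at least 1 CPM in all 3; between, the rest), coloured by the edgeR call. The bar for clear to clear holds 23904 transcripts and the bar for clear to low 39.

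The 759 transcripts that went from low to clear are termed switched on. They were 1.83% of those tested and 2.65% of those clear at 12 somites. Their median level at 12 somites was 2.58 CPM, the quartiles were 1.7 and 5.46 CPM, and the highest reached 110 CPM. A level of at least 10 CPM was reached by 88 of them and of at least 100 CPM by 2, while 275 stayed under 2 CPM. In 54 of the 759, all 3 gastrula libraries had 0 counts, which allows a level of up to 0.0293 to 0.0348 CPM, depending on the library (3 counts, counting error only).

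At most 3 counts in each gastrula library were found in 329 of the switched-on transcripts. Against a floor of 3 counts per library, these were at least 32.4-fold to at least 3020-fold higher at 12 somites. The median bound was 81.2-fold. These bounds refer to observed counts and leave out counting error. The other 430 had some counts at 80% epiboly, and the ratio of their mean CPM had a median of 66.1-fold and a range of 14.8-fold to 1700-fold. The class has no gap at its edges. Its highest gastrula library lay between 0.08 and 0.1 CPM in 118 members, and 134 otherwise similar transcripts lay between 0.1 and 0.12 CPM, just outside.

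The switched-on transcript with the highest level was ENSDART00000115383.4. It held 4, 6 and 9 counts in the gastrula libraries and 10136, 11030 and 11081 counts in the 12 somites libraries. In CPM these were 0.0451, 0.0697 and 0.088 at 80% epiboly and 103, 114 and 112 at 12 somites. All 3 libraries of the later stage were therefore far above all 3 of the earlier one. The means were 0.0676 ± 0.0215 and 110 ± 6.22 CPM (SD, n = 3), a ratio of 1620. The fitted log2 fold change was 10.6. Its p carries no weight, since the transcript was chosen by its low and clear levels in these libraries.

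The 39 switched-off transcripts were 0.094% of those tested and 0.152% of those clear at 80% epiboly, so there were 19.5 switched-on transcripts for each of them. This ratio was 8.94 with a low level of 0.2 CPM, 10.6 with a clear level of 0.5 CPM, 35.7 with a low level of 0.05 CPM and 31 with library totals, and the number switched off ran from 12 to 142 over the CPM limits tried. Their median level at 80% epiboly was 3.06 CPM, and 10 of them had been at 10 CPM or more. At 12 somites 0 of the 39 were at 0 counts in all 3 libraries, and 9 held at most 3 counts in each. Against a floor of 3 observed counts, counting error left out, those 9 were at least 38-fold to at least 418-fold lower. In the other 30 the ratio of mean CPM ran from 14.9-fold to 809-fold, with a median of 60.3-fold. In this class 14 members had their highest 12 somites library between 0.08 and 0.1 CPM, and 14 similar transcripts lay just outside, between 0.1 and 0.12 CPM.

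The switched-off transcript with the highest gastrula level was ENSDART00000171095.1. It held 3442, 3700 and 4340 counts at 80% epiboly, or 38.8, 43 and 42.4 CPM. At 12 somites it held 7, 7 and 1 counts, or 0.0708, 0.0726 and 0.0101 CPM. The stages did not overlap, and the later libraries were close to the floor. Mean levels were 41.4 ± 2.28 CPM before and 0.0512 ± 0.0356 CPM after (SD, n = 3). The fitted log2 fold change was -9.63. Its p carries no weight, since this transcript too was chosen by its levels in these libraries.

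Most transcripts clear at both stages changed by degree, but a call was about as common among all transcripts tested (84.2%). Of the 23904, 8404 (35.2%) were called higher and 12015 (50.3%) lower, and 3485 were not called. Over all transcripts tested, 44.3% were called higher and 39.9% lower. The 8404 and 12015 are 20.2 and 28.9% of all tested, and 4288 of them also meet the rule for kept transcripts given below. With TMM scaling, rises had a median log2 fold change of 0.77 and falls of -0.78. This likeness in size was computed with TMM scaling only and not with the other scalings. Under 2-fold were 63% of the rises and 64.8% of the falls. At 4-fold or more the counts were 874 rises and 801 falls, and at 16-fold or more 89 and 33. The split of directions depended on scaling: with library totals in place of TMM, 11135 were called higher and 8832 lower, because the median log2 change of all transcripts moved from 0.076 to 0.4.

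ENSDART00000133353.1 had the largest gain in CPM among the transcripts clear at both stages. It stood at 259, 371 and 289 CPM at 80% epiboly and at 2880, 2600 and 2980 CPM at 12 somites. The gastrula libraries varied among themselves, but the lowest 12 somites library was well above the highest of them. Mean levels were 306 ± 57.9 CPM before and 2820 ± 196 CPM after (SD, n = 3). The log2 fold change was 3.2 with SE 0.11 (adjusted p = 9.62e-12, edgeR's quasi-likelihood test). That p carries no weight, since the transcript was chosen among called ones by its CPM difference in these libraries. Its share of all transcript counts went from 0.0274 to 0.315%, and it moved from rank 558 to rank 6 by mean CPM.

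ENSDART00000023156.6 had the largest loss in CPM. It stood at 10100, 9920 and 10600 CPM at 80% epiboly and at 6280, 6630 and 6350 CPM at 12 somites, without overlap. It had the highest CPM of all transcripts at both stages, and the loss was large in CPM though modest as a ratio. Mean levels were 10200 ± 352 CPM before and 6420 ± 182 CPM after (SD, n = 3). The log2 fold change was -0.67 with SE 0.049 (adjusted p = 2.14e-08, edgeR's quasi-likelihood test). With library totals the log2 fold change was -0.35 (adjusted p = 2.11e-06, edgeR). Neither p carries weight, since this transcript too was chosen among called ones by its CPM difference in these libraries.

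**Figure D3:**
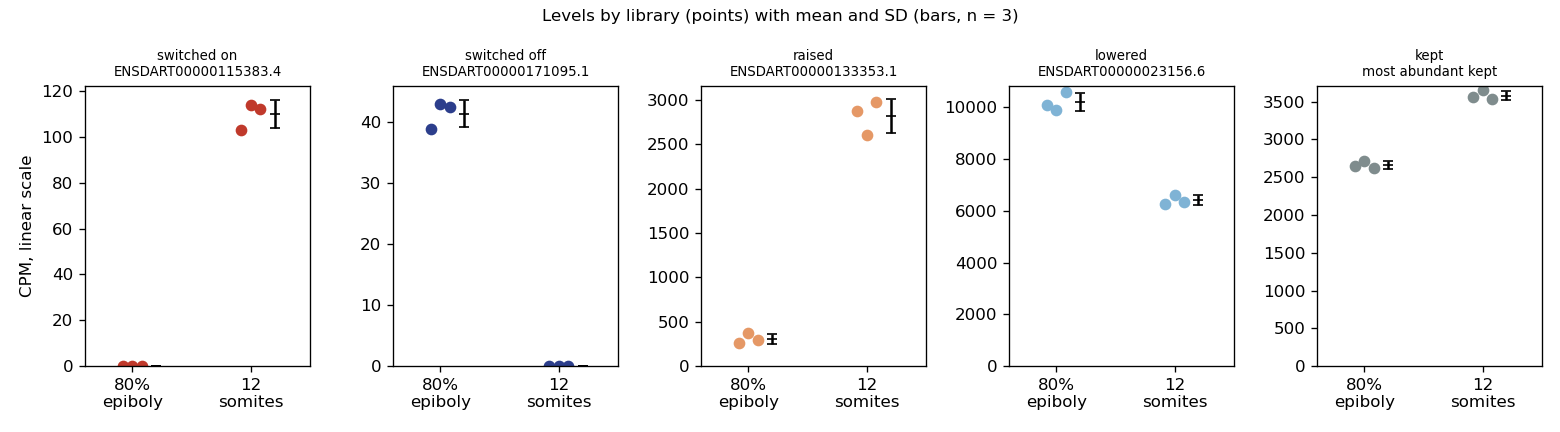
CPM on a linear axis from 0 for 5 transcripts in each control library (points), with mean and SD as bars (n = 3 per stage). In each panel the 3 libraries of 1 stage lie apart from those of the other, from 0.0676 against 110 CPM for the switched-on transcript to 2660 against 3580 CPM for the most abundant kept one. For the switched transcripts the class rule fixes this separation. The raised and lowered ones were chosen among called transcripts by their CPM difference.

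Kept transcripts were defined by precision and not by the lack of a call. They had to be clear in all 6 libraries, with a 95% interval of the log2 fold change inside a 1.5-fold change in either direction. This was met by 7668 transcripts, 18.5% of those tested and 32.1% of those clear at both stages. Their median level was 13.5 CPM, and for 2633 of them the estimate was within 1.1-fold. The interval reached a median of 0.149 on either side of the estimate, on the log2 scale. Among them 4288 were called, 1806 higher and 2482 lower, so these were small changes measured with little error. Only 105 transcripts clear at both stages were neither called nor kept.

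The kept transcript with the highest mean level illustrates this. It stood at 2650, 2710 and 2620 CPM at 80% epiboly and at 3560, 3650 and 3530 CPM at 12 somites. Replicates agreed closely and the stages did not overlap, yet the ratio of the means was 1.35. The log2 fold change was 0.43, with a 95% interval of 0.331 to 0.525 (adjusted p = 8.69e-07, edgeR's quasi-likelihood test). With library totals the log2 fold change was 0.75, and with at least 10 counts required in every library it was 0.54 with an interval of 0.434 to 0.639, so that it was not kept under either. Of the 7668 kept transcripts 4929 met the rule with library totals.

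Direction varied with level, measured as the mean CPM over the 6 libraries. Among called transcripts at 0.1 to 1 CPM, 65.1% were higher at 12 somites, and at 1 to 10 CPM 58.1% were. The share was 36.3% at 10 to 100 CPM, 28.6% at 100 to 1000 CPM and 26.7% at 1000 CPM or more. In the last bin 20 of 79 transcripts were called higher and 55 lower, with a median log2 fold change of -0.83. With library totals the same bins gave 72.7, 69.3, 52.4, 38.8 and 33.8%, so the order of the bins was the same under both scalings while the majority at 10 to 100 CPM turned from lower to higher. Precision also depended on level: the median SE of the log2 fold change was 0.3 at 0.1 to 1 CPM and 0.062 at 10 to 100 CPM.

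The classes took unequal shares of the transcript counts, and these shares do not depend on the scaling factors, although membership does. Lowered transcripts outside the kept class, 9533 in number, held 60.6 to 61.3% of transcript counts at 80% epiboly and 35.4 to 35.7% at 12 somites. The 6598 raised transcripts outside it held 10.5 to 10.8% at the earlier stage and 27.4 to 27.7% at the later one. Kept transcripts held 27.2 to 27.5% and then 33.5 to 33.8%. They were chosen on TMM-scaled levels, where their median log2 fold change was -0.038, while shares are of library totals. The median log2 change of all transcripts was 0.0758 with TMM and 0.399 with library totals. The gain in kept share is therefore no separate result. Switched-on transcripts held at most 0.00207% of gastrula counts and 0.453 to 0.469% of counts at 12 somites. Switched-off transcripts held 0.0234 to 0.0253% and then at most 0.0002%. The classes were chosen on these libraries, so the directions of the raised, lowered and switched classes follow from the choice and the sizes are a description. The shares that moved most belonged to transcripts clear at both stages. These held nearly all counts at either stage, so that ranking was largely set by the class rules.

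**Figure D4:**
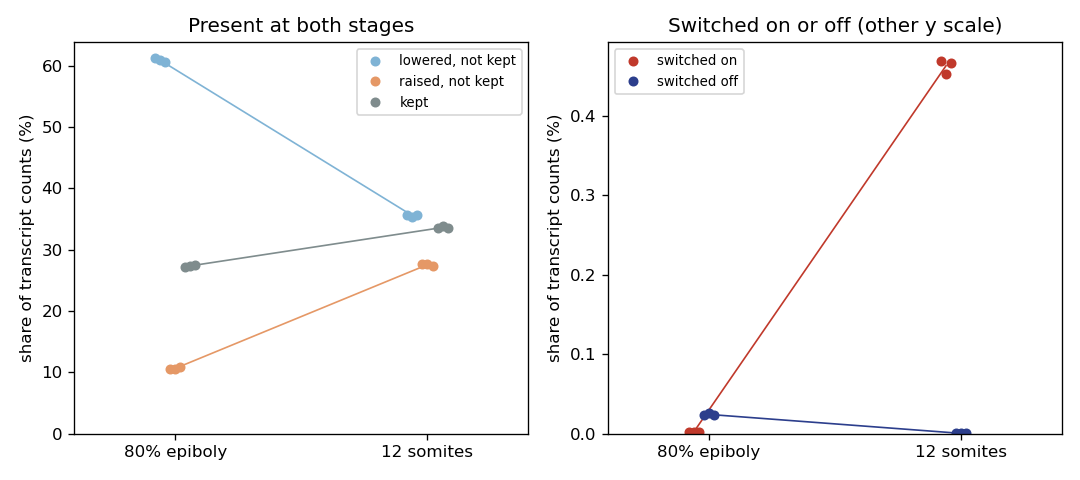
Share of all transcript counts, in percent on axes from 0, held by each class in each of the 3 control libraries per stage (points; lines join the means). Lowered transcripts go from 60.6 to 61.3% of counts down to 35.4 to 35.7% on the left, and switched-on transcripts end at 0.453 to 0.469% on the right, where the y axis is expanded.

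The libraries also differed in how counts were spread. The 100 transcripts with most counts held 18.2 to 18.8% of counts at 80% epiboly and 16.2 to 16.6% at 12 somites, and the 1000 with most counts held 48.1 to 48.8% and 45.8 to 46.8%, in each case without overlap. IDs with at least 10 counts numbered 37412 to 38288 in the deeper gastrula libraries and 40719 to 41134 in the 12 somites libraries. The most abundant sets were partly the same, with 4 of the 10, 61 of the 100 and 711 of the 1000 transcripts of highest mean CPM shared between stages. None of the switched-on or switched-off transcripts (0) was among the 1000 of highest mean CPM at its stage of presence.

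The 24 hpf control libraries had no part in choosing the classes, and levels for all 3 stages were scaled together for this description. These libraries were shallower, with 68391282 to 72734557 transcript counts, and 5.6 to 6.35% of reads lay outside annotated features. Of the 759 switched-on transcripts, 665 (87.6%) stood at 1 CPM or more in all 3 libraries at 24 hpf, and 6 were low again. Of all tested transcripts 70.9% stood at that level and 3.68% were low, and of those clear at 12 somites 92.8% stood at that level. The median level of the switched-on class was 0.0291 CPM at 80% epiboly, 2.63 CPM at 12 somites and 5.94 CPM at 24 hpf. The first value is near that of 3 counts per library and marks the floor. From 12 somites to 24 hpf the median of all tested transcripts went from 3.67 to 4.35 CPM. For all clear at 12 somites it went from 8.56 to 8.83 CPM. Of the 39 switched-off transcripts, 4 (10.3%) were clear at 24 hpf, 19 (48.7%) were low and 16 lay between. Of all 766 tested transcripts low at 12 somites, which include these, 3.13% were clear at 24 hpf and 54.3% were low. Staying low was therefore not particular to the switched-off class. Of the 7668 kept transcripts, 7384 (96.3%) were clear at 24 hpf. That level was held by 98.5% of raised transcripts, 92.4% of lowered ones, 89.5% of all clear at 80% epiboly and 92.8% of all clear at 12 somites. A mean within 1.5-fold of that at 80% epiboly was found in 4293 of the kept transcripts (56%). The share was 37.9% of raised transcripts, 17% of lowered ones and 29.5% of all clear at 80% epiboly, each of which includes kept ones. The 80% epiboly level also served to choose the kept class. All 24 hpf libraries lay below all 80% epiboly libraries in 50.2% of kept transcripts, and above in 17.5%. For all clear at 80% epiboly these shares were 55.5 and 26%, and for all tested transcripts 41.1 and 40.4%.

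By mean CPM, the switched-on, raised and lowered transcripts named above went further in the direction already taken by 12 somites. ENSDART00000115383.4 stood at 394, 568 and 330 CPM at 24 hpf, all above its 12 somites libraries. ENSDART00000171095.1 stood at 0.0249, 0 and 0.0125 CPM and had not returned. These levels overlapped its 12 somites levels near the floor, so no further fall can be read. ENSDART00000133353.1 stood at 5150, 3600 and 5970 CPM, and ENSDART00000023156.6 at 4100, 4800 and 3840 CPM. These values lie on the same side of the 80% epiboly level as those at 12 somites. The most abundant kept transcript turned back. With all stages scaled together, its means were 2850 CPM at 80% epiboly, 3650 CPM at 12 somites and 2480 CPM at 24 hpf.

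**Figure D5:**
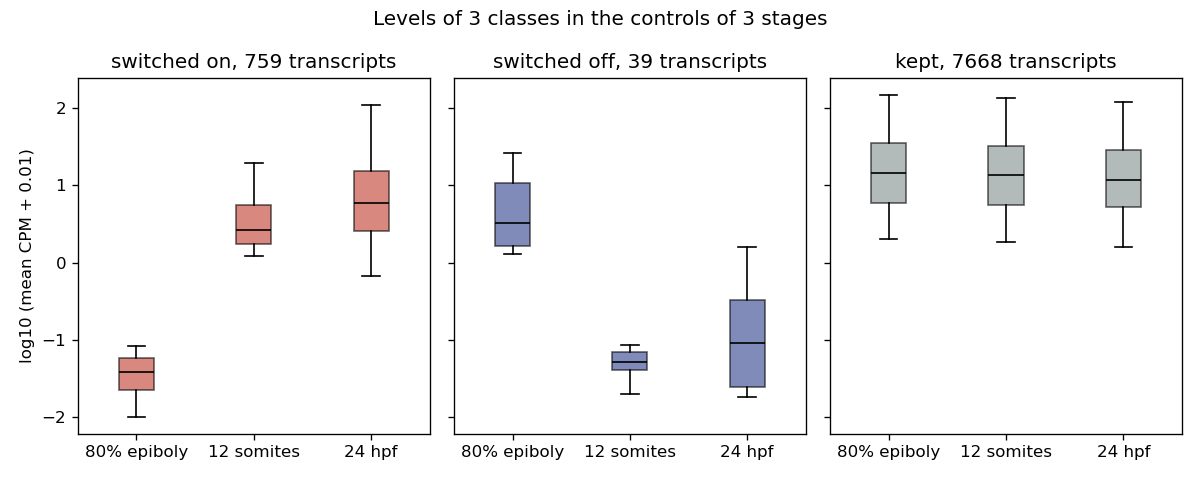
Boxes show the log10 of mean CPM plus 0.01 (median, quartiles, and whiskers at the 5th and 95th percentiles over transcripts) in the controls of each stage, n = 3 libraries per stage. The switched-on class has medians of 0.0291 (near the floor of counting), 2.63 and 5.94 CPM, and the kept class has medians of 14.5, 13.5 and 11.8 CPM.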

How the data were processed

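RNA-seq libraries of whole embryos were used, 3 controls at 80% epiboly and 3 at 12 somites, with 3 controls at 24 hpf for later levels. The deposited files hold raw counts per versioned Ensembl transcript ID, 1 file per library, and the authors had not pooled replicates. STAR, HTSeq and the builds GRCz10 and danRer10 are named in the submitters' processing notes. Versions, annotation release and strand setting are not given in the sources used here, so reads of overlapping or antisense transcripts cannot be told apart. The 5 summary lines were dropped. Percentages of reads are of a total of transcript counts and of reads without a feature, ambiguous or without a unique alignment. Unaligned reads are not in this total. Ambiguous reads made up 18.4 to 18.9% of it and those without a unique alignment 7.2 to 8.43%. The latter were counted 1 time because 2 lines repeat them. Reads can be credited to several IDs: 1218 tested IDs, in 585 sets, had counts identical to another ID in all 18 libraries, 29 of them switched on and 0 switched off. A read credited to several IDs enters the total above more than once, so the percentages of reads are not shares of distinct reads.

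Transcripts were kept by filterByExpr, scaled by TMM and tested with glmQLFit and glmQLFTest in edgeR 4.0.16 (R 4.3.3), 12 somites against 80% epiboly, with Benjamini-Hochberg adjustment. SE is the absolute log2 fold change over the square root of F. Named transcripts were the switched-on and switched-off ones with the highest level, the raised and lowered ones with the largest CPM difference, and the kept one with the highest mean. The members, classes and lists were chosen with earlier results of these data known. The design had 10 lists with 90 genes and cell type markers, all void because 0 IDs had a gene. Positions, lengths and sequences were not analysed here. Alternatives were DESeq2 1.42.0 (size factors and Wald test), library totals, other filters and limits, the replicate block and leaving out libraries.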

Additional observations from a re-analysis of the deposited data

How the results depend on the processing

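The number of called transcripts was 34967 and stayed within 1.5 times that under the other scalings, filters and tests, except that a log2 fold change of at least 1 left 19718. Library totals raised the share of higher calls from 52.6 to 64.2%. Requiring at least 10 counts in every library removed all switched-on and switched-off transcripts (0 and 0), by construction. A low level of 0.05 CPM gave 428 on and 12 off, 0.2 CPM gave 1269 and 142, a clear level of 5 CPM gave 192 and 12, and 0.5 CPM gave 1251 and 118, so the ratio of on to off ran from 8.94 to 35.7 over these limits. Library totals gave 899 and 29. Raised transcripts numbered 4305 at a clear level of 5 CPM. Kept transcripts numbered 14357 within 2-fold, 2713 within the narrower limit tried and 4839 in a fit of all 9 control libraries, where 1 estimate of spread includes the 24 hpf libraries.

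The numbers gave no pairing of libraries across the stages: deviations from the stage mean correlated, for equal numbers, at -0.00016, -0.084 and -0.082, and 0 of 6 libraries correlated best with their own number. The replicate block gave 34186 calls, with 759 on and 39 off. Without each library in turn there were 33961 to 35292 calls, 788 to 843 on, 46 to 55 off, 6978 to 7628 kept, 8077 to 8449 raised and 11537 to 12144 lowered. The on and off rules ask every library of a stage to pass a limit. Leaving 1 out therefore tends to enlarge these classes, and both ranges lie above 759 and 39. Keeping 1 ID per set of identical IDs, chosen after seeing the data, gave 34420 calls, 747 on and 40 off. The raised and lowered named transcripts kept direction and call under each alternative that gave them a value. Since both were chosen among called transcripts of these libraries, that is no separate support. The kept one met its rule in 11 of 13 refits, the exceptions being library totals and the filter of 10 counts. Depth limits levels under 0.0293 to 0.0348 CPM, the value of 3 counts after TMM scaling.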
